A study of Mus musculus with 16 samples.

Results

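The 9 genes described here are *Vdr*, the receptor for the hormone form of vitamin D, the retinoic acid receptor genes *Rara* and *Rarb*, the retinoid X receptor genes *Rxra*, *Rxrb* and *Rxrg*, the genes *Crabp1* and *Crabp2* of the cellular retinoic acid binding proteins, and *Aldh1a1*, which encodes an enzyme that makes retinoic acid. They are 9 of 48397 gene symbols counted in each of 16 libraries and were chosen by name, with their read counts and their differences between the groups already known, so their levels and folds are given as a description, and the number of them that edgeR calls is read as no evidence. Of the 9 genes, 8 passed a filter on low counts, as did 17038 genes in all, and *Crabp2* did not. The cells were primary hippocampal neurons of wild type CD1 mice, prepared from pups aged P0 to P2, grown in Neurobasal medium with 2% of the supplement B-27 and given cytosine arabinoside at 3 DIV (days in vitro) against dividing cells. At 10 and 13 DIV they received medium, concentrated 10-fold and added at 1:10, that had been conditioned by immortalized mouse astrocytes, and RNA was taken at 17 DIV. The astrocytes were lines homozygous for human apoE2, apoE3 or apoE4, or were *Apoe*-/- and secreted no apoE (the control neurons). The control therefore differed from the treated groups by the astrocyte line as well as by apoE. The same holds for the isoform groups against each other. Each of the 4 groups had 4 libraries, described by the study as independent cultures. The B-27 supplement in its usual form holds a retinyl ester, a precursor of retinoic acid, and which form was used is not given in the sources used here.

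Vitamin D and vitamin A act through receptors that sit on DNA as dimers. The vitamin D receptor and the retinoic acid receptors each bind DNA together with a retinoid X receptor, which also partners the thyroid hormone, liver X and PPAR receptors. Retinoic acid is made from retinol through retinaldehyde, is held in the cytosol by the CRABP proteins and is broken down by enzymes of the CYP26 family, and in the hippocampus it is known for its part in neuronal differentiation and synaptic scaling. These dimers recognise a pair of hexamers in the same orientation, a direct repeat, whose spacing favours one receptor over another, and a repeat with a spacer of 5 bases is the classical retinoic acid response element.

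The promoters in RefSeq (GRCm38.p6) were searched for such repeats, because they are the DNA letters on which these receptors act. Windows of 300 bases, from 250 bases before to 50 after an annotated start, covered 8 of the 9 genes with 15 windows, and *Crabp2* was not among them. The hexamer was searched in 4 common forms. The form AGGTCA is the consensus of the family, and the form GGGTCA is a common variant of it. The form AGTTCA was searched as well, as was the form GGTTCA. Each was looked for on either strand and, in a repeat, with spacers of 1 to 5 bases. A single hexamer stood in 8 of the 15 windows, against 43.7% of all 32851 windows. A repeat stood in 1 of the 15, that of *Rarb*, which holds a spacer of 5 bases 53 bases before its start. This repeat was present in 0.0974% of all windows. Of the genes of the wider pathway, *Cyp26a1*, a retinoic acid breakdown enzyme and a known target of the receptors, also held it, on the other strand from 32 bases before its start. A spacer of 3 bases, the form the vitamin D receptor prefers, was found in 0.0396% of all windows and in none of the 15 windows of these genes. A match is a description of the letters and not evidence of a bound receptor, and no match says only that these letters are not in this window. *Bco1*, which encodes an enzyme that splits carotene, held a repeat with a spacer of 1 base, a form present in 0.222% of all windows. The 2 repeats with a spacer of 5 bases are shown 5′ to 3′ on the strand that reads the hexamers forward, with the hexamers in capitals.
Rarb, chr14:16575513-16575529: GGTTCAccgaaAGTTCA
Cyp26a1, chr19:37697776-37697792: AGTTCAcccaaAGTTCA

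The 250 bases before a start are given here for *Rarb* and *Cyp26a1*, which hold a repeat, and for *Vdr* and *Rxrg*, the receptor genes with the largest log2 fold changes below. Capitals mark every hexamer, read on either strand. *Vdr* held 1 hexamer and *Rxrg* 1 before the start shown, *Rxrg* having another start farther downstream. The strands of *Rarb* and *Vdr* are minus and those of *Cyp26a1* and *Rxrg* plus.
Rarb, chr14:16575477-16575726: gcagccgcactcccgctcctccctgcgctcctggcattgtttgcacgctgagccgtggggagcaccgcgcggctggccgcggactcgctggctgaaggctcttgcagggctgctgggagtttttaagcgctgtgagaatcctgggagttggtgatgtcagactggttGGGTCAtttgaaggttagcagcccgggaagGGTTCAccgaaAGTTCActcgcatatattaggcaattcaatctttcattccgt
Cyp26a1, chr19:37697558-37697807: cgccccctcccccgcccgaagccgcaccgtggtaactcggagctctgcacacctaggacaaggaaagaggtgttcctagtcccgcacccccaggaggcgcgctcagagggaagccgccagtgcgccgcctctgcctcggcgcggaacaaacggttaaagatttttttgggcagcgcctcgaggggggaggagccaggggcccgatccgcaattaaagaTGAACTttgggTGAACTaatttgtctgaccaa
Vdr, chr15:97908297-97908546: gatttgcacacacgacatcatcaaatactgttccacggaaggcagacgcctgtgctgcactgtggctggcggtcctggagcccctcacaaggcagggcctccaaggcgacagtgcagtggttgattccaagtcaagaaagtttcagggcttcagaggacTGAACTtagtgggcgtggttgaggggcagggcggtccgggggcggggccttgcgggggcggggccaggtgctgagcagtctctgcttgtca
Rxrg, chr1:167598112-167598361: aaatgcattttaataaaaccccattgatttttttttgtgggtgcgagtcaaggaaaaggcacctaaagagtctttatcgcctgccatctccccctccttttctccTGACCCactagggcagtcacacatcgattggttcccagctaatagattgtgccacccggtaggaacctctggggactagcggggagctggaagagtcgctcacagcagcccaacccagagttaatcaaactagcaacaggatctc

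Reads counted on genes ranged from 14087723 to 34248172 per library with a median of 22221832, and levels are given as CPM, the count of a gene scaled by the TMM-adjusted library size of its library. Libraries that share a replicate number resembled each other across the groups, least clearly for number 1. A pair below is a treated and a control library of the same number. Of 63 further genes tested below, 11, 17 and 16 were higher in 4 of 4 pairs with apoE2, apoE3 and apoE4. Another 4, 6 and 6 were lower in 4 of 4 pairs, so such a count is not rare. Its share over all genes was not counted. The neuron markers *Rbfox3*, *Map2*, *Tubb3*, *Snap25*, *Syt1*, *Syp*, *Slc17a7*, *Gad1* and *Gad2* were all detected, with a summed level of 3167 to 7967 CPM over the 16 libraries, and astrocyte markers summed to 1146 to 5533 CPM. In these mixed cultures fewer cells of a type and less RNA per cell cannot be told apart.

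In the control neurons the retinoid X receptors were the most abundant transcripts of the group per kilobase of exon and *Vdr* the least. *Rxrg* stood at 13.7 ± 5.12 CPM per kilobase (SD, n = 4), *Rxrb* at 10.8 ± 0.887 and *Rxra* at 4.91 ± 1.94. *Rara* followed at 2.33 ± 1.09 and *Rarb* at 1.49 ± 0.377. The ranges of *Rxrg* and *Rxrb* overlapped, as did those of *Rxra* and *Rara*, of *Rara* and *Rarb* and of *Rarb* and *Aldh1a1*, while *Rxrb* lay above *Rxra* in every control library without overlap. *Aldh1a1* had 0.844 ± 0.129 CPM per kilobase, *Crabp1* 0.319 ± 0.139, *Crabp2* 0.146 ± 0.143 and *Vdr* 0.0338 ± 0.0237. *Aldh1a1* and *Crabp1* did not overlap, and the 3 lowest genes overlapped from neighbour to neighbour. The count of *Rarb* is uncertain, since 38.4% of its exon bases lie over *Top2b* and *Gm48162* on the other strand and whether the counting used the strand is not given in the sources used here. For the other 8 genes no exon base lay over another gene.

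**Figure D1:**
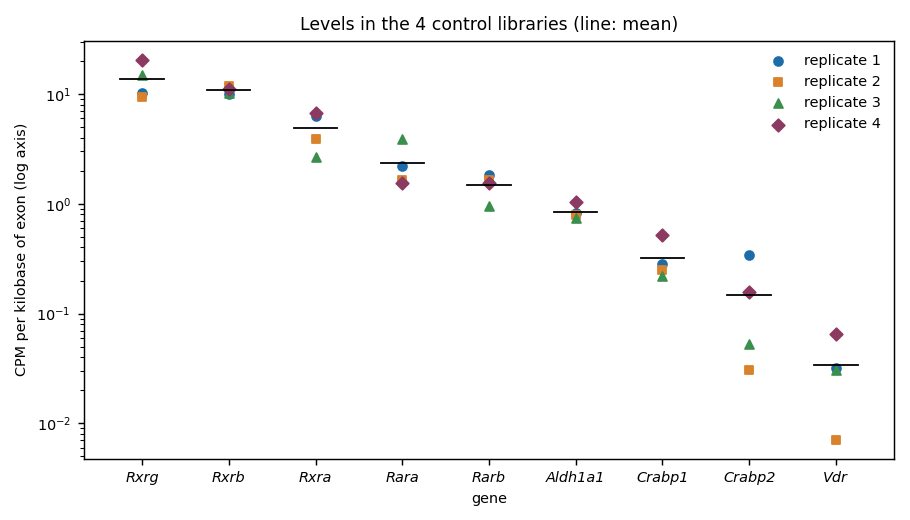
Levels of the 9 genes in the 4 control libraries, in CPM per kilobase of exon on a log axis. Points are libraries, marked by replicate number, and lines are means. The retinoid X receptor genes stand highest, with means of 4.91 to 13.7 CPM per kilobase, and *Vdr* lowest at 0.0338.

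*Vdr* (chromosome 15, 97854425 to 97910630, minus strand) was higher with each isoform than in the control neurons, from few reads. The control libraries held 4, 1, 5 and 7 *Vdr* reads in the order of their replicate numbers, the apoE2 libraries 7, 10, 10 and 40, the apoE3 libraries 12, 14, 23 and 35, and the apoE4 libraries 22, 17, 9 and 25. This corresponded to 0.182, 0.0402, 0.175 and 0.367 CPM in the control, and to 0.493, 0.382, 0.383 and 1.02 CPM with apoE2. With apoE3 the levels were 0.914, 0.574, 0.876 and 2.30 CPM, and with apoE4 1.49, 0.485, 0.498 and 1.27 CPM. Every treated library lay above every control library, and replicate number 4 was the highest library in the control, apoE2 and apoE3 groups. Within pairs the ratio to the control was 2.19 to 9.49 with apoE2, 5.02 to 14.3 with apoE3 and 2.85 to 12.04 with apoE4, where the largest ratio of each set rests on the single read of control replicate 2. The fitted log2 fold change was 1.62 (standard error 0.63) for apoE2, 2.60 (0.64) for apoE3 and 2.28 (0.64) for apoE4.

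*Vdr* was the only one of the 8 tested genes whose treated and control libraries did not overlap, with each of the isoforms, and the 3 comparisons share the control libraries. Among all genes tested, 1.14% were higher without overlap with apoE2, 1.4% with apoE3 and 1.34% with apoE4. Among the isoforms the order of the *Vdr* means, 0.569 ± 0.303 CPM with apoE2, 1.17 ± 0.769 with apoE3 and 0.936 ± 0.522 with apoE4 (SD, n = 4), was not set apart from the spread, as all 3 ranges overlapped. The apoE2 library was the lowest of the isoforms in 4 of 4 replicate numbers. *Vdr* was the gene of this set with the largest part of its log2 variance between groups, at 62.9%, against 30.5% between replicate numbers.

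The retinoid X receptor genes took 3 different courses. *Rxrg* (chromosome 1, 167598384 to 167639623, plus strand), the receptor of this family with the most restricted expression, stood at 23.4, 21.5, 34.2 and 47.1 CPM in control replicates 1 to 4. With apoE2 it stood at 32.5, 37.3, 65.8 and 75.5 CPM, with apoE3 at 52.6, 46.9, 80.4 and 54.8 CPM, and with apoE4 at 31.3, 32.8, 34.9 and 40.3 CPM. The level was above that of the paired control in 4 of 4 pairs with apoE2 and with apoE3 and in 3 of 4 with apoE4, and the control and treated ranges overlapped for each isoform. Every apoE4 library lay below every apoE3 library, as was the case for 1.11% of all genes. The log2 fold change against the control was 0.74 (standard error 0.29) for apoE2, 0.90 (0.29) for apoE3 and 0.14 (0.29) for apoE4, and −0.75 (0.29) for apoE4 against apoE3.

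*Rxra* (chromosome 2), the retinoid X receptor found in most tissues, followed the replicate number and not the group. It measured 31.4 to 36.7 CPM in the 4 libraries of number 1 and 26.6 to 42.8 CPM in those of number 4, but 17.8 to 21.7 CPM in number 2 and 14.7 to 18.05 CPM in number 3. Of its log2 variance 90.7% lay between replicate numbers and 4.04% between groups. The fitted log2 fold changes were −0.22 (standard error 0.38) with apoE2, 0.05 (0.38) with apoE3 and 0.10 (0.38) with apoE4.

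*Rxrb* (chromosome 17) varied little, between 31.4 and 47.2 CPM over all 16 libraries. Its mean was 42.9 ± 3.52 CPM in the control, 40.1 ± 1.78 with apoE2, 40.9 ± 3.49 with apoE3 and 40.5 ± 6.56 with apoE4 (SD, n = 4). The log2 fold changes lay between −0.10 and −0.07 with a standard error of 0.11 each. *Rxrb* was lower than in the paired control in 4 of 4 pairs with apoE2, at 0.902 to 0.973 of the control level. *Rxrg* made up 45.7 ± 9.10% of the retinoid X receptor transcripts per kilobase in the control (SD, n = 4), 59.8 ± 10.9% with apoE2, 61.7 ± 7.36% with apoE3 and 49.5 ± 4.76% with apoE4. The apoE3 shares, from 56.8 to 72.7%, all lay above the control shares, from 37.3 to 53.8%, and above those with apoE4, from 42.9 to 53.2%. In CPM the *Rxrg* ranges of apoE3 and control overlapped, and how often such shares lie apart for other genes was not counted.

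**Figure D2:**
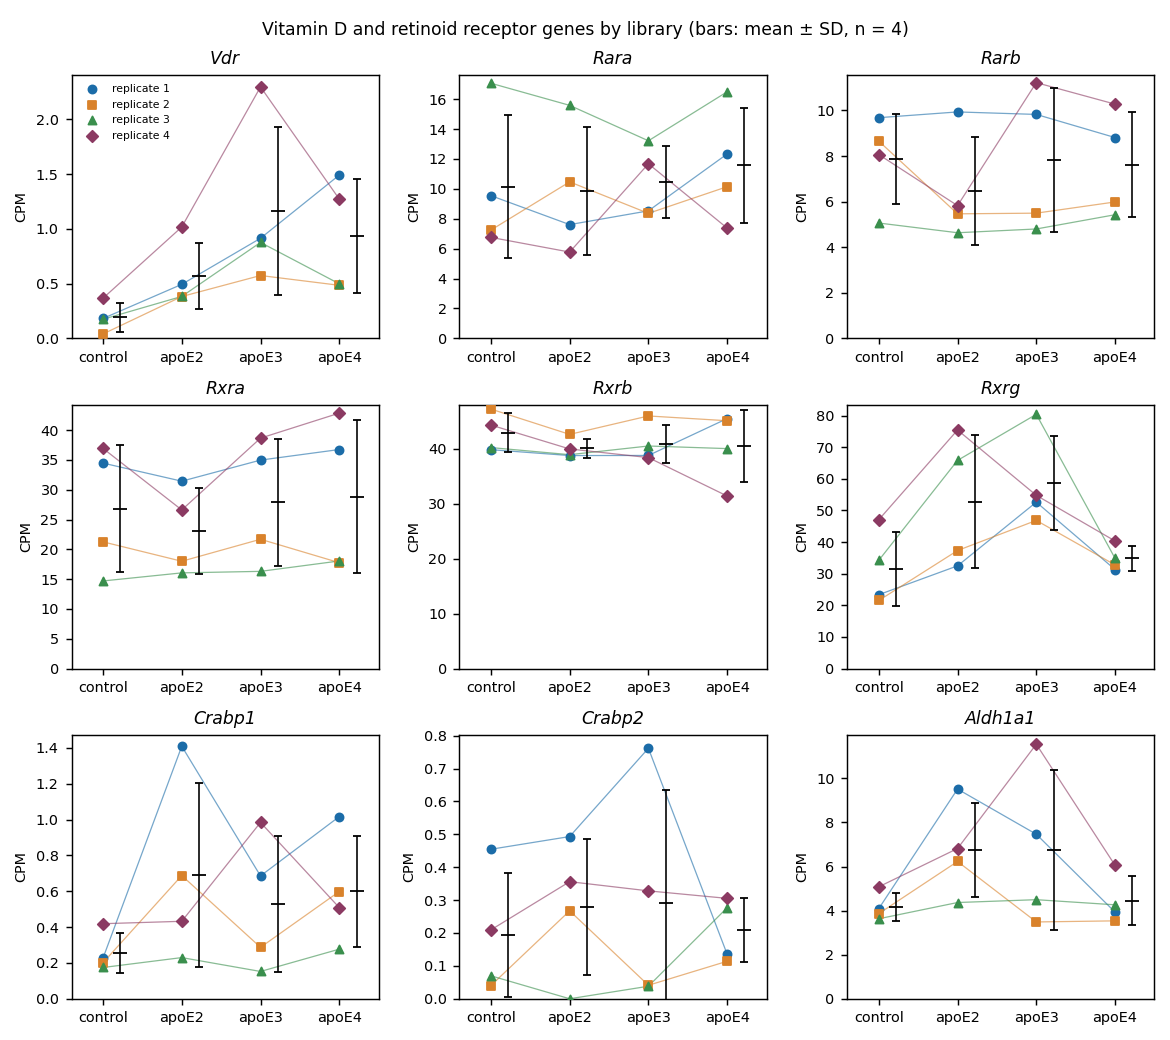
Levels of the 9 genes in each library, in CPM, by group. Points joined by a line share a replicate number, and bars beside them are the mean ± SD of 4 libraries, not drawn below 0. *Vdr* lies higher in all 12 treated libraries than in the 4 control libraries, *Rxrg* is higher with apoE2 and apoE3, and *Rxra* separates by replicate number.

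*Rara* and *Rarb*, whose products bind retinoic acid itself, had fitted values within 0.29 of the control on the log2 scale with every isoform. *Rara* (chromosome 11) stood at 9.55, 7.24, 17.1 and 6.76 CPM in control replicates 1 to 4 and at 5.77 to 15.6 CPM with apoE2, 8.36 to 13.2 with apoE3 and 7.38 to 16.5 with apoE4. Replicate number 3 held the highest *Rara* level in each of the 4 groups. The log2 fold changes of *Rara* were −0.04 (standard error 0.35), 0.04 (0.35) and 0.19 (0.35) with apoE2, apoE3 and apoE4. *Rarb* (chromosome 14, 16430839 to 16819156, minus strand), whose promoter holds the repeat shown above, stood at 9.68, 8.65, 5.06 and 8.07 CPM in control replicates 1 to 4. It ranged over 4.63 to 9.94 CPM with apoE2, 4.80 to 11.2 with apoE3 and 5.42 to 10.3 with apoE4, and replicate number 3 was the lowest in each group. Its log2 fold changes were −0.29 (0.33), −0.01 (0.33) and −0.05 (0.33).

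The retinoic acid binding proteins rested on very few reads. *Crabp1* (chromosome 9), which binds retinoic acid in the cytosol, held 5, 5, 5 and 8 reads in the control libraries, 20, 18, 6 and 17 with apoE2, 9, 7, 4 and 15 with apoE3 and 15, 21, 5 and 10 with apoE4. Its level was above that of the paired control in 4 of 4 pairs with apoE2 and apoE4 and in 3 of 4 with apoE3, and the groups overlapped. The log2 fold changes of 1.38 (standard error 0.64), 0.99 (0.66) and 1.23 (0.64) were near one another. *Crabp2* (chromosome 3), which hands retinoic acid to its nuclear receptors, had 17 reads in the 4 control libraries together, 28 with apoE2, 17 with apoE3 and 17 with apoE4. The library of apoE2 replicate 3 held 0 *Crabp2* reads, where 3 reads, taken as the floor for a count of 0, would be 0.115 CPM. *Crabp2* did not pass the filter and was not tested.

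*Aldh1a1* (chromosome 19), which oxidises retinaldehyde to retinoic acid, stood at 4.09, 3.86, 3.63 and 5.08 CPM in control replicates 1 to 4. With apoE2 it stood at 9.51, 6.23, 4.37 and 6.82 CPM, with apoE3 at 7.46, 3.48, 4.50 and 11.5 CPM and with apoE4 at 3.93, 3.53, 4.26 and 6.05 CPM. It was higher than in the paired control in 4 of 4 pairs with apoE2, 3 of 4 with apoE3 and 2 of 4 with apoE4, and the apoE4 level was below the apoE2 level in 4 of 4 pairs. The log2 fold changes were 0.69 (standard error 0.34), 0.69 (0.34) and 0.09 (0.34).

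**Figure D3:**
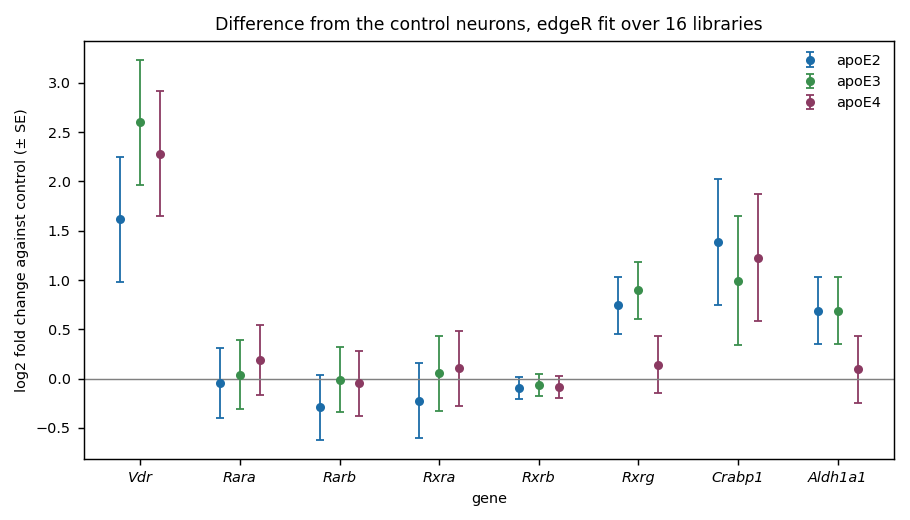
Log2 fold change of the 8 tested genes against the control neurons, with the standard error of the edgeR fit, for apoE2, apoE3 and apoE4. *Vdr* has the largest values, 1.62 to 2.60, and *Rara*, *Rarb*, *Rxra* and *Rxrb* lie within 0.29 of 0.

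With edgeR's quasi-likelihood test and Benjamini-Hochberg adjustment over all tested genes, an adjusted p under 0.05 was reached by 0 of the 8 genes in any of the 6 comparisons. Of all genes 0% reached it in the apoE2 neurons, 0.00587% in the apoE3 neurons and 0.194% in the apoE4 neurons relative to the control, and 0.147% for apoE4 against apoE3, 0.252% for apoE4 against apoE2 and 0% for apoE3 against apoE2. At an unadjusted p under 0.05 there were 3, 2 and 1 of the 8 genes against the control, in the order apoE2, apoE3 and apoE4, and DESeq2 called 1, *Vdr* with apoE3. Over all 17038 genes 475, 1095 and 563 had an unadjusted p under 0.05 against the control in that order, and 801 for apoE4 against apoE3, 910 for apoE4 against apoE2 and 389 for apoE3 against apoE2. DESeq2 called 29, 60 and 91 of all genes against the control, and 69, 163 and 9 between the isoforms. At a fold of 2 and an unadjusted p under 0.05, the limits the study set on another test and applied here to edgeR's p, 2 genes of the set were higher with apoE2 (*Vdr* and *Crabp1*), 1 with apoE3 and 1 with apoE4 (*Vdr*), against 0.423%, 1.25% and 1.04% of all genes. When the fit also held a term for the replicate number (a block), the adjusted p was under 0.05 for *Rxrg* with apoE2, *Vdr* and *Rxrg* with apoE3, *Vdr* with apoE4, and *Rxrg* for apoE4 against apoE3. The shares of all genes under the block were 1.73%, 11.7% and 3.3% against the control, 1.76% for apoE4 against apoE3, 4.44% for apoE4 against apoE2 and 1.31% for apoE3 against apoE2. As the genes were chosen with these comparisons known, nothing is read from their number of calls.

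The replicate numbers also separated the cultures by markers of other cell types, and these moved with some of the values above. Meningeal or fibroblast markers, of which 7 of 9 passed the filter, summed to 110 to 197 CPM in number 1 and 80.3 to 232 CPM in number 4, against 17.998 to 22.9 CPM in number 2 and 20.6 to 34.5 CPM in number 3. Numbers 1 and 4 were those with the highest *Rxra* and *Vdr* means. By group the same sum spanned 20.6 to 141 CPM in the control, 17.998 to 157 with apoE2, 21.2 to 227 with apoE3 and 22.9 to 232 with apoE4. Astrocyte markers (7 of 7 passed) spanned 1281 to 2708 CPM in the control, 1146 to 2618 with apoE2, 1525 to 5533 with apoE3 and 1426 to 4623 with apoE4. Their median log2 fold change was 0.27, 0.82 and 0.68 with apoE2, apoE3 and apoE4, against 0.01, 0.02 and 0.00 for all genes.

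Of the other marker lists, mural markers had median log2 fold changes of 0.28, 1.05 and 0.77 in the same order, meningeal or fibroblast markers −0.02, 0.82 and 0.67, oligodendrocyte lineage markers 0.29, 0.73 and 0.41, endothelial markers 0.31, 0.69 and 0.74, and dividing cell markers 0.48, 0.70 and 0.80. The dividing cell markers (5 of 5 passed) summed to 6.68 to 17.3 CPM in the control, 18.5 to 27.9 with apoE2, 25.8 to 40.01 with apoE3 and 11.5 to 28.8 with apoE4, so that the apoE2 and apoE3 libraries all lay above the control libraries, as those of *Vdr* did. The medians were −0.06, −0.16 and −0.04 for neuron markers, −0.11, −0.27 and −0.16 for hippocampal excitatory neuron markers, 0.18, 0.66 and 0.29 for striatal neuron markers, −0.04, 0.18 and 0.08 for microglia markers and 0.00, 0.56 and −0.01 for choroid plexus or ependyma markers. With the replicate block, 6 of 7 astrocyte markers were higher with apoE3 and 3 of 7 with apoE4 (edgeR adjusted p under 0.05). The same fit called 11.7% of all genes with apoE3 and 3.3% with apoE4, in either direction. Such counts are not given here for the other marker lists. The study's own count of astrocytes, stained for the protein GFAP on coverslips, did not vary significantly across its treatments. Of the endothelial markers *Cldn5*, *Cdh5* and *Tek* fell under the filter, as did *Foxd1* and *Slc6a13* of the meningeal list, and no marker was at 0 in all libraries. The part of these cell types, dividing cells included, in the levels of *Vdr*, *Rxra*, *Rxrg* and *Aldh1a1* was not tested.

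**Figure D4:**
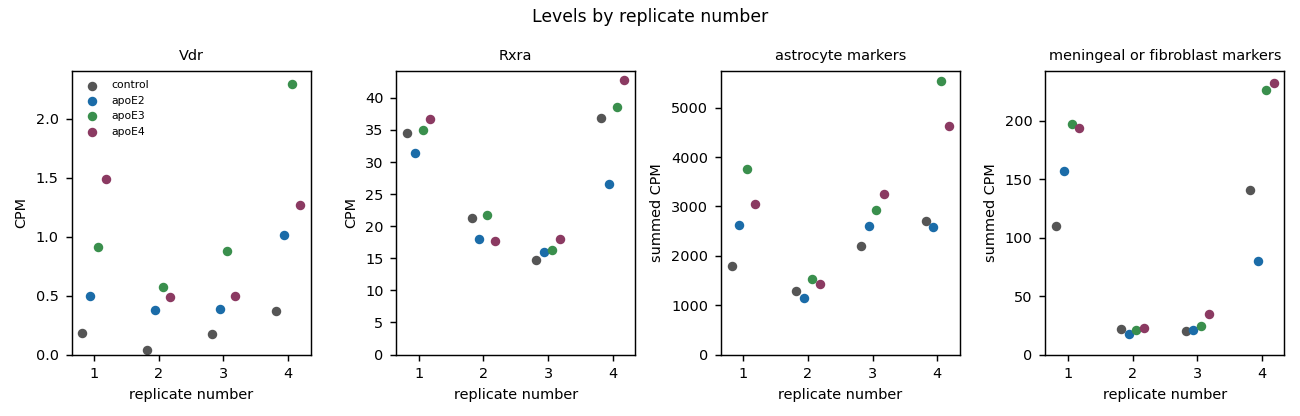
Levels by replicate number, in CPM for *Vdr* and *Rxra* and in summed CPM for the astrocyte and the meningeal or fibroblast marker lists. Each point is a library, coloured by group. *Rxra* and the meningeal markers are high in numbers 1 and 4 and low in 2 and 3, while *Vdr* also differs between the control and treated libraries of each number.

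The wider pathway was followed in 90 further genes in 8 lists, of which 63 passed the filter. In the 3 comparisons with the control, 0 of the 63 reached an edgeR adjusted p under 0.05, while 2, 8 and 2 in the order apoE2, apoE3 and apoE4 fell under 0.05 before adjustment, beside 475, 1095 and 563 of all 17038 genes, and DESeq2 called 0 in each. Between the isoforms 0 of the 63 reached an edgeR adjusted p under 0.05 either. At an unadjusted p under 0.05 there were 4 for apoE4 against apoE3, 6 for apoE4 against apoE2 and 3 for apoE3 against apoE2. Of all genes there were 801, 910 and 389. DESeq2 called 1 of the 63, *Calb1*, for apoE4 against apoE2, where it called 163 of all genes. With the replicate block the edgeR counts were 2, 14 and 4 against the control and 4, 5 and 4 between isoforms, in the same order, beside 1.73%, 11.7% and 3.3% of all genes against the control and 1.76%, 4.44% and 1.31% between isoforms. The 14 with apoE3 were 12 genes that rose and 2 that fell. The median log2 fold change of the 63 genes was 0.04 for apoE2, 0.25 for apoE3 and 0.17 for apoE4.

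Of the genes of retinoic acid breakdown, 2 of 3 were tested, with median log2 fold changes of 1.44, 1.86 and 0.48 for apoE2, apoE3 and apoE4. *Cyp26b1* (chromosome 6), a hydroxylase that inactivates retinoic acid, stood at 5.50, 1.97, 11.9 and 13.9 CPM in control replicates 1 to 4. It stood at 10.1, 4.59, 21.7 and 61.5 CPM with apoE2, at 60.4, 14.5, 52.0 and 88.3 CPM with apoE3, and at 13.2, 3.82, 25.0 and 21.4 CPM with apoE4. It was above the paired control in 4 of 4 pairs with each isoform. The apoE3 libraries all lay above those of the control, as for 1.4% of all genes. The ratio within pairs was 1.82 to 4.42 with apoE2, 4.36 to 10.98 with apoE3 and 1.54 to 2.40 with apoE4. On the log2 scale *Cyp26b1* differed by 1.56 with apoE2 (standard error 0.81), 2.69 with apoE3 (0.84) and 0.93 with apoE4 (0.80), for which edgeR gave adjusted p of 1, 0.593 and 1.00. Without apoE2 replicate 4, its highest apoE2 library, the apoE2 difference was 0.55. Under the block these became 0.0254 for apoE2 and 8.64e-05 for apoE3, and 0.00292 for apoE4 against apoE3, where the level was lower with apoE4 in 4 of 4 pairs.

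*Cyp26a1* (chromosome 19), whose promoter holds the repeat shown above, stood at 1.23, 2.09, 3.18 and 2.25 CPM in the control. It stood at 4.30, 7.03, 5.21 and 5.42 CPM with apoE2 and at 5.48, 3.77, 4.27 and 4.53 CPM with apoE3. All of these lay above the control, as for 1.14% of all genes with apoE2 and 1.4% with apoE3. With apoE4 *Cyp26a1* stood at 2.03, 4.02, 2.21 and 0.611 CPM. The fitted differences of *Cyp26a1* on the log2 scale were 1.32, 1.04 and 0.03, each with a standard error of 0.41, and edgeR gave adjusted p of 1 and 0.757 for the first pair, with edgeR adjusted p of 0.0675 and 0.0668 with apoE2 and apoE3 under the block. The apoE4 libraries all lay below the apoE2 libraries, as for 1.5% of all genes, with a log2 difference of −1.29 (0.42, edgeR adjusted p = 0.435) and an edgeR adjusted p of 0.0432 with the block. *Rarb*, the other gene with the repeat, differed from the control by at most 0.29 on the log2 scale. *Cyp26c1*, the last gene of this list, fell under the filter with a mean of 0.263 CPM over the 16 libraries.

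Among the genes of retinoic acid synthesis, 11 of 15 were tested and the median log2 fold change was 0.04, 0.11 and 0.07 with apoE2, apoE3 and apoE4. *Aldh1a2*, the retinaldehyde dehydrogenase known in the meninges, stood at 0.682, 0.362, 0.140 and 0.367 CPM in control replicates 1 to 4. It stood at 3.10, 0.306, 0.153 and 1.40 CPM with apoE2, at 6.40, 0.533, 0.79996 and 3.54 with apoE3 and at 2.44, 0.314, 0.0554 and 1.73 with apoE4. Numbers 1 and 4 were again the high ones with each isoform. Its log2 fold changes were 1.64 with apoE2 and 1.52 with apoE4. Over the libraries left out these ranged from 0.72 to 2.04 and from 0.84 to 1.92. The difference of 2.84 on the log2 scale with apoE3 (standard error 1.11) had an edgeR adjusted p of 0.757, and of 0.00251 with the block, and was 2.04 without apoE3 replicate 1. *Dhrs3*, which turns retinaldehyde back to retinol, was higher with apoE3 in 4 of 4 pairs, at 15.003 ± 5.01 CPM against 8.98 ± 1.94 (SD, n = 4), and differed by 0.74 on the log2 scale (0.31; edgeR adjusted p 0.767, or 0.0157 with the block). *Aldh1a3* differed by −2.16 on the log2 scale (0.72) with apoE2 at an edgeR adjusted p of 1, from a mean of 0.484 CPM in the control to 0.0956 CPM. The abundant *Adh5*, *Rdh10* and *Rdh11* had log2 fold changes between −0.28 and 0.61.

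In the list of retinoid uptake, storage and binding 9 of 15 genes were tested, with medians of 0.03, 0.56 and −0.07. With apoE3, *Rlbp1*, a carrier of retinaldehyde, differed from the control by 1.12 on the log2 scale, *Fabp5*, which also carries retinoic acid, by 0.25 and *Ttr*, which encodes transthyretin, by 0.56. These 3 values had edgeR adjusted p of 0.803, 0.851 and 0.8289, and *Rlbp1* and *Fabp5* were called with the block (0.00771 and 0.0345). The retinoic acid receptor targets, 11 of 19 tested and in part the genes above, had medians of 0.35, 0.74 and 0.17. Of them *Meis1* with a log2 fold change of 1.09 and *Ret* with 0.79, both with apoE3, and *Tgm2* with 1.17 with apoE4 were called with the block only and are named because of those calls, as *Dhrs3* above. Without apoE4 replicate 4 the value of *Tgm2* was 0.36, and without control replicate 4 it was 2.02. The abundant *Nrip1* and *Meis2* lay between −0.20 and 0.30.

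The vitamin D lists were mixed. Of the 9 genes of vitamin D handling 7 were tested, with medians of 0.14, 0.26 and 0.32, and none was called against the control with or without the block. *Cyp24a1*, which inactivates vitamin D and is the best known target of its receptor, stood at 1.14, 0.0805, 0.768 and 0.314 CPM in control replicates 1 to 4 and at 3.12, 0.164, 0.419 and 3.28 CPM with apoE3. Its log2 fold changes were −0.17, 1.55 and 0.76 with edgeR adjusted p of 1, 0.806 and 1.00, and it was above the paired control in 3 of 4 pairs with apoE2 and with apoE3 and in 4 of 4 with apoE4. The apoE2 value was −0.91 without apoE2 replicate 1 and 0.35 without control replicate 1, and over the libraries left out the others ranged from 1.00 to 2.07 and from 0.30 to 1.28. *Pdia3*, *Dhcr7* and *Lrp2*, the abundant genes of the list, and *Cyp27a1* lay between −0.16 and 0.91. Over the libraries left out, *Cyp27a1* ranged from 0.002 to 1.24 with apoE2, −0.34 to 1.46 with apoE3 and 0.08 to 1.62 with apoE4. *Lrp2* ranged from −0.17 to 1.10 with apoE4.

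Of the 12 vitamin D receptor targets 8 were tested, with medians of 0.34, 0.53 and 0.38. *Spp1*, which encodes osteopontin and shares 18.8% of its exon bases with *Gm42793* on the same strand, stood at 88.3, 21.7, 15.99 and 177 CPM in control replicates 1 to 4, at 270, 41.3, 35.3 and 334 CPM with apoE2, at 418, 52.2, 64.6 and 611 CPM with apoE3, and at 174, 29.3, 25.3 and 308 CPM with apoE4. It was above the paired control in all 12 pairs, by 1.35 to 4.73 times, while the replicate numbers differed more than the groups. Its log2 fold changes of 1.17, 1.92 and 0.82 had edgeR adjusted p of 1, 0.803 and 1.00, and of 0.000774, 6.83e-06 and 0.00494 with the block. Without replicate 4 of the isoform concerned the log2 fold changes of *Spp1* were 0.59, 1.23 and −0.0027. *Calb1*, the calcium buffer calbindin, was higher with apoE2 and lower with apoE3 and apoE4 than in the control in 4 of 4 pairs each. *Klk6* had log2 fold changes of 0.91, 1.56 and 1.44 with group means under 1 CPM. Its values rested on single libraries, at −0.38 without apoE2 replicate 1, 0.77 without apoE3 replicate 1 and −0.99 without apoE4 replicate 4, and at 2.43, 3.09 and 2.97 without control replicate 4. *Atp2b1*, a calcium pump, had −0.27, −0.39 and −0.21 at 555 CPM.

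The other nuclear receptors and partners (13 of 16 tested) had medians of −0.01, 0.04 and 0.20 and the receptor coregulators (9 of 9 tested) of 0.04, −0.02 and 0.14. *Rorb* had log2 fold changes of 0.31, 0.90 and 0.88, with an edgeR adjusted p of 0.788 with apoE3, and was called with the block with apoE3 and apoE4. *Thra*, the thyroid hormone receptor and at 618 CPM the most abundant receptor of the lists, lay between −0.18 and −0.06, *Thrb* and *Nr1h2* between −0.25 and 0.31, and the coregulators *Ncor1*, *Ncoa1* and *Ncoa2* between −0.15 and 0.14. *Ncoa6* stood 0.48 above the control on the log2 scale with apoE4. *Rarg*, the retinoic acid receptor gene outside the set, made up 12.8 ± 5.45% of the retinoic acid receptor transcripts per kilobase in the control (SD, n = 4) and 18.7 ± 9.73% with apoE4. Its log2 fold changes were −0.05, 0.46 and 0.89 with a standard error of 0.47 each, and edgeR adjusted p of 1, 0.824 and 1.00.

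**Figure D5:**
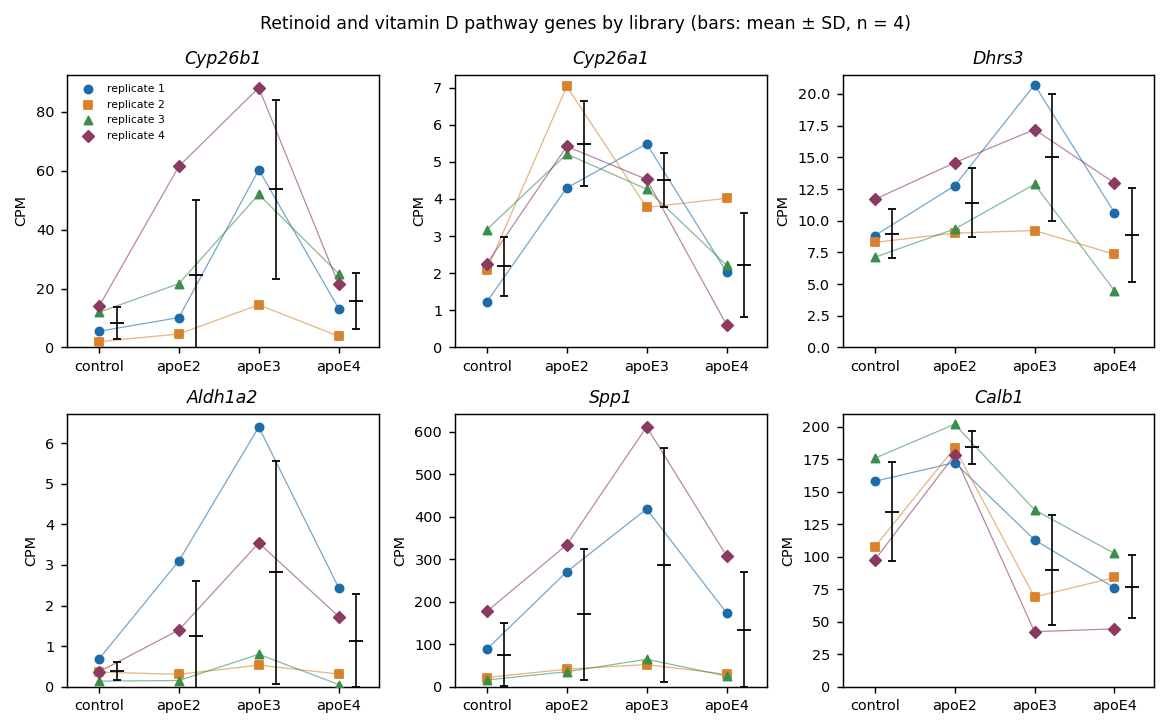
Levels of 6 genes of the pathway lists in each library, in CPM, by group. Points joined by a line share a replicate number, and bars are the mean ± SD of 4 libraries, not drawn below 0. *Cyp26b1* is highest with apoE3 in all 4 replicate numbers, *Cyp26a1* is above the control in every apoE2 and apoE3 library, and *Calb1* moves up with apoE2 and down with apoE3 and apoE4.

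Over the 16 libraries the genes whose log2 CPM most resembled that of *Vdr* were *Syne3*, *Snai2* and *Serpina3g*, with Pearson's r of 0.921, 0.907 and 0.901. After the mean of each replicate number was taken off, they were *Asap2*, *Bag3* and *Il1r1* (r of 0.907, 0.907 and 0.905). For *Rxrg* they were *Fhod3*, *Cdo1* and *Dock5* (0.907, 0.905 and 0.894) before and *Akap9*, *Pcdh10* and *Fhod3* (0.963, 0.951 and 0.945) after this step, *Fhod3* being in both lists. *Aldh1a1* was most like *Pid1*, *Cd81* and *Fbxw8* (0.913, 0.913 and 0.8997), and *Rxra* most like *Tgfbr1*, *Cdc42ep4* and *Cdon* (0.974, 0.973 and 0.972). *Cdc42ep4* was also among the 3 genes most like *Rxra* after the replicate means were taken off, at 0.902. Among the 8 genes themselves, with the replicate means taken off, the highest r was 0.678, between *Rarb* and *Rxra*, and that between *Vdr* and *Rxrg* was 0.588. These values describe 16 libraries of 4 groups and carry no test.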

How the data were processed

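RNA of 16 neuron cultures was sequenced from TruSeq libraries made with 200 ng of RNA. The authors deposited raw read counts per gene symbol for each library, aligned to mm10 with STAR (submitters' processing notes) and counted with HTSeq. The strand setting and the gene annotation of the counting are not given in the sources used here. Entries for reads on no single gene, between 38.4 and 73.7% of the counts of a library, entered neither the library sizes nor the tests. *Lars2* alone held 0.359 to 15.0% of the counts on genes. Libraries were grouped by their labels, and no pair of the 24 within a group differed by as little as sampling noise (chi-square per degree of freedom 42.2 to 459). Gene positions and exon lengths came from GENCODE M21, in which 46394 of 48397 symbols (95.9%) were found, and promoters from RefSeq.

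Genes were filtered with filterByExpr (minimum count 10, minimum total 15, minimum proportion 0.7), scaled by TMM and tested with edgeR 4.0.16 (quasi-likelihood, R 4.3.3) in a single fit of all 16 libraries, with Benjamini-Hochberg adjustment within each comparison. CPM of 16 libraries on the log2 scale, with a prior count of 2, served for correlations. DESeq2 1.42.0 was an alternative, as were its size factors in edgeR, no filter, a filter of 1 CPM in 8 libraries, fits of the compared groups alone, the replicate number as a block, and leaving out each library. The fitting step was tested on simulated counts. Intervals are not given for single counts, and a floor of 3 counts covers counting error only. P-values without the block set a difference against the spread between cultures of a group, differences between replicate numbers included. Those with the block set it against the spread left after the replicate numbers.

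The members and the gene lists (vitamin D handling, vitamin D receptor targets, retinoid uptake, storage and binding, retinoic acid synthesis, breakdown and receptor targets, other receptors and partners, coregulators, and 11 lists of cell type markers) were chosen with earlier results of these data known. The rule for named genes took the 9 members, every pathway gene called without the block, the 3 genes of each list with the highest mean CPM and the 2 with the largest log2 fold change against the control, and for each tested member the 3 genes with the highest Pearson's r, before and after the mean of each replicate number was taken off. *Dhrs3*, *Meis1*, *Ret*, *Tgm2*, *Rarg* and *Bco1* fall outside it and were chosen after their values were seen. Some genes the rule takes are not reported here.

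Whether equal replicate numbers pair the libraries was checked by the correlation of deviations from the group means. Libraries of number 1 gave 0.362 to 0.552 and those of number 2 gave 0.766 to 0.831. Those of number 3 gave 0.620 to 0.671 and those of number 4 gave 0.681 to 0.790. The 72 pairs of different numbers gave −0.736 to 0.569. The values of number 1 lay within this last range, so the check did not set number 1 apart. The numbers were taken to pair the libraries. The common dispersion was 0.132 without and 0.0178 with the block.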

Additional observations from a re-analysis of the deposited data

Results flagged for a closer look

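*Calb1*, which encodes the calcium buffer calbindin, was singled out because its differences from the control ran in opposite directions. It stood at 158, 108, 176 and 97.5 CPM in control replicates 1 to 4, at 173, 184, 202 and 178 CPM with apoE2, at 113, 69.1, 136 and 42.4 CPM with apoE3 and at 76.2, 84.1, 103 and 44.6 CPM with apoE4. It was higher than in the paired control in 4 of 4 pairs with apoE2, and lower in 4 of 4 pairs with apoE3 and in 4 of 4 with apoE4. Between isoforms the log2 difference was −1.26 for apoE4 against apoE2 and −1.03 for apoE3 against apoE2. As *Calb1* was singled out by these same values, they describe it, and the difference was not tested on others. In 60 groups of 4 libraries, 0 had a library whose gap to the nearest other, as a share of the range, was above Dixon's critical value, where chance gives about 1 in 20.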

How the results depend on the processing

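With the replicate number as a block, the edgeR fit called, of the 63 pathway genes, 2 for apoE2, 14 for apoE3 and 4 for apoE4 relative to the control, 4 for apoE4 against apoE3, 5 for apoE4 against apoE2 and 4 for apoE3 against apoE2, where the fit without the replicate block called 0 in each. The block also called 1.73%, 11.7%, 3.3%, 1.76%, 4.44% and 1.31% of all genes in these comparisons. DESeq2 called 1, *Calb1*, for apoE4 against apoE2. Leaving out each of the 16 libraries in turn gave 0 to 0 calls in each of the 6 comparisons. Of 9253 log2 fold changes of the 71 tested genes under the alternatives, 40 passed the threshold only there, 38 of them with the block and 2 with DESeq2 (*Vdr* with apoE3 and *Calb1* for apoE4 against apoE2). Those with the block were the pathway calls counted here and the calls of *Vdr* and *Rxrg*. The sign of 485 values changed, all of them values that were not called, among them *Spp1* with apoE4, at 0.82 with all libraries and −0.0027 at the lowest without apoE4 replicate 4. Over the libraries left out, the log2 fold change of *Vdr* ranged from 1.14 to 2.09 with apoE2, 2.05 to 3.07 with apoE3 and 1.94 to 2.75 with apoE4, and that of *Rxrg* with apoE3 from 0.70 to 1.15. *Vdr*, *Crabp1* and *Crabp2* had at most 40 reads in a library.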
